A study of Rattus norvegicus with 102 samples.

Results

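The comparison described here set CA1 of old rats with intact maze memory against CA1 of young rats. Its members were chosen by label, as the CA1 libraries of 12 old unimpaired rats and of 10 young rats, which are 22 of the 102 libraries of the series. All rats were male and of the strain Fischer 344, which the labels spell Fisher 344. Young rats were 5 to 6 months old, and old rats were 17 to 22 months old and were labelled unimpaired after a water maze task, in which a rat has to remember where a hidden platform lies. The labels name no transgene and no drug, and each library came from CA1 tissue dissected from the hippocampus of 1 rat. The other libraries were CA3 and dentate gyrus (DG) of the same rats and all subfields of 12 old impaired rats.

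CA1 is the output field of the hippocampus, and its pyramidal cells carry the spatial code that the water maze draws on. Besides these neurons a dissected piece holds interneurons, astrocytes, oligodendrocytes, vessels and microglia, the resident immune cells of the brain. Microglia sense their surroundings through surface receptors, take up debris into lysosomes and, when activated, present antigen on MHC class II molecules and secrete complement. These immune genes are known to rise with age in many brain regions, and whether they do so in rats that kept their memory is the question behind the comparison. In such tissue pieces, more cells of a type and more RNA per cell cannot be told apart.

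RNA readings of 3 kinds were available for each rat, namely an Illumina poly-A table, an Ion Proton poly-A table and a further table that the submitters named WT and whose library type is not stated in the sources used here. Values are gene counts that the authors had divided by a size factor for each library, called normalised reads below, and come from the Illumina table unless another is named. Illumina libraries held 7.80 to 39.7 M reads in old unimpaired and 9.11 to 42.3 M in young rats (permutation p = 0.547), and Ion Proton libraries 5.35 to 14.3 M and 7.17 to 17.3 M (permutation p = 0.0558). Ion Proton libraries had reads on a mean of 18090 genes in old unimpaired and 18970 in young rats (permutation p = 0.0352). Log2 differences are old unimpaired minus young on the log2(value + 1) scale, on which genes with few reads show a smaller change than their raw ratio.

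Markers fixed for each subfield placed 21 of the 22 libraries nearest to CA1 in all 3 tables. The exception was the library labelled CA1 of old unimpaired rat R9869, which was nearest to DG in all 3 tables, while the library labelled DG of that rat was nearest to CA1. In the former, CA1 markers had a mean log2 level of 7.17, below the 9.27 of the lowest young CA1 library. Its dentate granule markers, at 8.08, lay within the 7.26 to 8.33 of young CA1 libraries. The library labelled DG had means of 9.24 for CA1 and 8.77 for dentate granule markers. Wfs1, a defining gene of CA1 pyramidal cells, stood at 1348 normalised reads in that library and at 4355 to 10832 in young rats. The 9 tested striatal markers of that library lay on average 4.01 log2 units above the young mean, against -0.76 to 0.50 in the other 21, and Ppp1r1b (DARPP-32, abundant in striatal neurons) reached 10738 normalised reads. Values without this library are given beside several of the results below. Young rat R9780 had the highest MHC class II level of the young rats, and the Ion Proton libraries of old unimpaired rats R2230 and R2232 had reads on 15650 and 15057 genes, below the 18173 to 19069 of the other 10 old unimpaired libraries. Rat numbers fell into a series below 9000 (5 young and 6 old unimpaired) and a series from 9000 (5 and 6), and the labels do not say what set the series apart. The study's methods name sites in Arizona and Florida with rats from different suppliers, and the labels do not tie a rat to a site.

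With limma and Benjamini-Hochberg adjustment over all 14170 genes tested in the Illumina table, 0 genes passed an adjusted p of 0.05 (0%), and the lowest adjusted p was 0.0866. At an unadjusted p under 0.05 there were 690 genes (4.87%), 478 of them higher in old unimpaired rats (3.37%) and 212 lower (1.5%), and 47.7% of all genes had a positive difference. Counts of list members below stand against these shares. The same comparison gave 0 calls with edgeR and 27 with DESeq2 (0.191%), all 27 higher in old unimpaired rats. No gene had old unimpaired and young rats without overlap, in either direction (0%). With the number series as a covariate, 47 genes passed (0.332%), 46 higher (0.325%) and 1 lower, and with young rat R9780 left out 41 passed (0.289%), 40 higher (0.282%) and 1 lower; 36 genes passed in both. Leaving out old unimpaired rat R1930 gave 14 calls, R2232 gave 9 and young rat R2175 gave 4, all higher, and each of the other 18 rats left out gave 0. Without the library of R9869 there were 0 calls in the fit without a covariate and 27, all higher, with the number series in it.

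By the thresholds of the study, a gene needs an unadjusted p under 0.01 with Illumina reads and then a one-sided p under 0.05 with Ion Proton reads, tested in the direction already seen, and is here called retested. Of 222 genes that met the first threshold (1.57%), 188 were higher and 34 lower, and 86 were retested (0.607%), 71 higher (0.501%) and 15 lower (0.106%). The Ion Proton table holds RNA of the same rats, so a gene that passes both says nothing more about how rats differ from each other. Differences of the 71 ran from 0.14 to 2.06 with a median of 0.40, and those of the 15 from -1.10 to -0.14 with a median of -0.26. In the WT table, 85 of the 86 were tested and all 85 had the same sign. That table reads the same rats on which the genes were picked, so the shared sign is not independent. Without the Ion Proton libraries of R2230 and R2232, 147 genes were retested, 131 of them higher, and 78 of the 86 were among them. Without the library of R9869 in either table, 70 were retested, 54 higher and 16 lower. Leaving out 1 rat in both tables gave between 63 and 161 retested genes, with the highest counts without old unimpaired R2232 (161) and R1930 (155), so the number of genes depends on single rats while higher genes outnumbered lower ones in each of these 22 fits.

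The 3 largest differences of the retested genes were those of MHC class II genes, whose products pair to display peptides from engulfed material to T helper cells. Its alpha and beta chains are encoded side by side in the RT1 locus of the rat, and Cd74, the invariant chain, escorts them through the cell. All 5 of the 12 listed class II genes that were abundant enough to test had an unadjusted limma p under 0.05 and were higher in old unimpaired rats, with a median log2 difference of 1.78 beside -0.0041 over all genes, and 3 of them were retested. RT1-DMa and RT1-DMb, which load peptides, were listed at 0 in all 22 libraries, and the other 5 listed genes were too low to test or had no row. Because such low genes can pass the filter through the group in which they are high, the count over tested members is a description only.

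RT1-Da (ENSRNOG00000032844, chromosome 20), an alpha chain, had 12.5, 21.9 and 210.3 normalised reads as the lowest, median and highest value of young rats and 36.0, 84.4 and 254 of old unimpaired rats. The highest young value was that of R9780 and the next that of R2175 at 77.3, while the other 8 young rats lay below every old unimpaired rat at or under 35.4. The fitted values were a log2 difference 1.72, SE 0.441, limma p = 0.000692, adjusted p = 0.185, and the difference was 1.49 (SE 0.715, two-sided limma p = 0.0477) in the Ion Proton and 1.79 (limma p = 0.000444) in the WT table. RT1-Db1 (ENSRNOG00000033215, chromosome 20), a beta chain, had a lowest, median and highest value of 7.58, 12.2 and 159.7 in young and 25.4, 80.4 and 193 in old unimpaired rats. Its groups also overlapped only through R9780 and R2175 (log2 difference 2.04, SE 0.464, limma p = 0.000202, adjusted p = 0.117). In the Ion Proton table it was listed at 0 in R2230 and R2232, which had 25.4 and 38.2 normalised reads in the Illumina table, and its difference of 1.55 (SE 0.904, two-sided limma p = 0.0981) became 2.62 (limma p = 0.000203) without these 2 libraries.

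LOC688090 (ENSRNOG00000032708, chromosome 20), counted here with class II, had 4.33, 13.3 and 154 normalised reads in young and 21.0, 85.1 and 179 in old unimpaired rats (lowest, median and highest). Its difference of 2.06 (SE 0.478, limma p = 0.000249) was the largest of the retested genes, and it was 1 of the 2 genes that passed an adjusted p of 0.05 in the WT table (0.0146% of 13679), the other being Arl11. No gene passed there without the filter on low values, without R9869 or in 16 other fits that left out 1 rat, and 2 to 30 passed in the remaining 5. RT1-Ba, a second alpha chain, ran from 10.8 over a median of 16.9 to 195 in young rats, and from 38.2 over 81.6 to 214 in old unimpaired rats (log2 difference 1.72, limma p = 0.000392). Cd74 (ENSRNOG00000018735, chromosome 18) had 63.9, 95.0 and 926 normalised reads in young and 169, 449.9 and 968 in old unimpaired rats (lowest, median and highest; log2 difference 1.78, SE 0.396, limma p = 0.000156, adjusted p = 0.117). Neither RT1-Ba nor Cd74 was retested. For Cd74 the Ion Proton difference was 1.14 (SE 0.838, two-sided limma p = 0.184), with 0 in R2232, a rat at 169 in the Illumina and 71.5 in the WT table, and it was 2.02 (limma p = 6.85e-05) without R2230 and R2232. Reads of such similar family members can be counted for one another, so the genes are not independent readings.

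**Figure D1:**
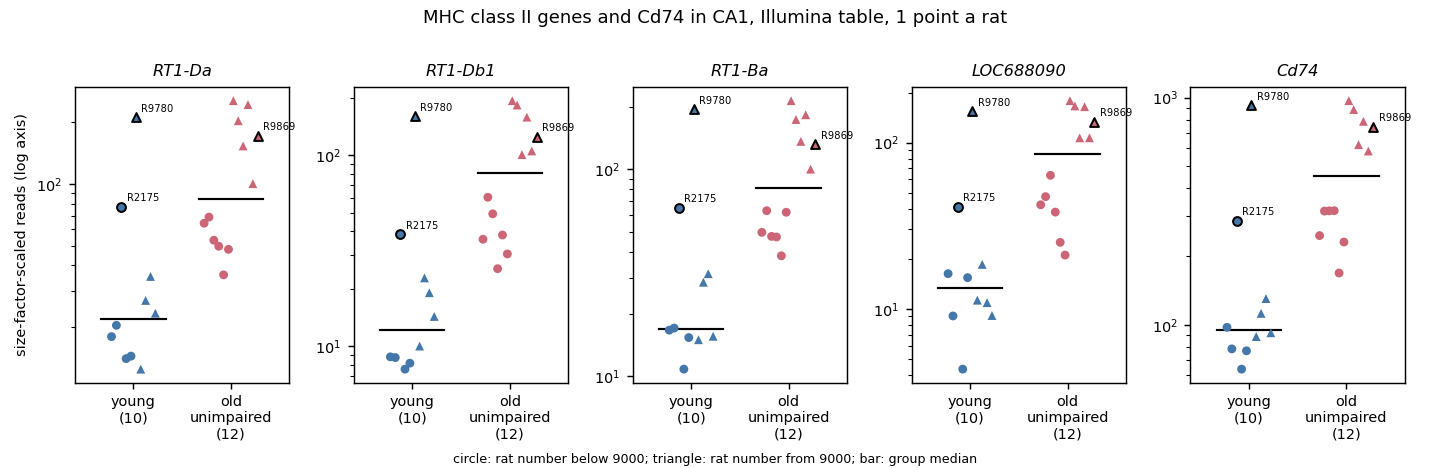
Normalised reads (log axis) of MHC class II genes and Cd74 in CA1 of each young (10) and old unimpaired (12) rat, with circles for rat numbers below 9000, triangles for numbers from 9000 and a bar at the group median. Young R9780 sits among the old unimpaired rats of its series in every panel, young R2175 is next, and the other 8 young rats lie below all old unimpaired rats.

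All 5 class II genes passed an adjusted p of 0.05 with the number series in the model, with adjusted p of 0.0185 for RT1-Db1, 0.024 for LOC688090 and 0.0365 for RT1-Da, and all 5 passed without R9780. Without a covariate none of the 5 passed in DESeq2, with adjusted p from 0.282 to 0.468, or in edgeR, from 0.534 to 0.679. Within the series below 9000, RT1-Da was at 14.1 to 77.3 in 5 young and 36.0 to 68.8 in 6 old unimpaired rats (log2 difference 1.17, limma p = 0.00615). Within the series from 9000 it was at 12.5 to 210.3 in young and 100.1 to 254 in old unimpaired rats (log2 difference 2.27, limma p = 0.00121). Old unimpaired rats of the 2 series did not overlap in RT1-Da, and Cd74 was likewise 169 to 318 below 9000 and 582 to 968 from 9000, a split that was not tested. Without R9869 the differences of RT1-Da and RT1-Db1 were 1.65 (limma p = 0.00135) and 1.97 (limma p = 0.000406).

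Class II genes share an upstream control region in which a Y box, built on CCAAT, is bound together with other factors and the co-activator Ciita. The promoters of the tested class II genes with an entry in RefSeq are shown because these genes differed together. Each line gives the 250 bases before the start of the gene in the GRCr8 build, 5′ to 3′ on the strand of the gene, with CCAAT on either strand in capitals.
RT1-Da (GRCr8 chr20:4515165-4515414, plus strand): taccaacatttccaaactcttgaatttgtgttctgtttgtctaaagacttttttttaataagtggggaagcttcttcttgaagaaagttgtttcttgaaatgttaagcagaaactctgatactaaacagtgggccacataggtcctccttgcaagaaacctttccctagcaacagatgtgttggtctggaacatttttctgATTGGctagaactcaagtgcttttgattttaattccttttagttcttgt
RT1-Db1 (GRCr8 chr20:4560163-4560412, minus strand): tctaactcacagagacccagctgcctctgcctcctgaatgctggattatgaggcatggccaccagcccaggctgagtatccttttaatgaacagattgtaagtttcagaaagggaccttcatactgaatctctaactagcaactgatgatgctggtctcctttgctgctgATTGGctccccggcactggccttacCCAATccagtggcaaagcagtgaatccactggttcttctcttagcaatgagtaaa
RT1-Ba (GRCr8 chr20:4576807-4577056, plus strand): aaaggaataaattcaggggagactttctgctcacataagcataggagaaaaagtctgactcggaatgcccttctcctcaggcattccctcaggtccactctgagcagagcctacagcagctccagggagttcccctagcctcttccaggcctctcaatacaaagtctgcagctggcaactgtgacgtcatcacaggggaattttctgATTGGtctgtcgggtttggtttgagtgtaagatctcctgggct
Cd74 (GRCr8 chr18:56526956-56527205, plus strand): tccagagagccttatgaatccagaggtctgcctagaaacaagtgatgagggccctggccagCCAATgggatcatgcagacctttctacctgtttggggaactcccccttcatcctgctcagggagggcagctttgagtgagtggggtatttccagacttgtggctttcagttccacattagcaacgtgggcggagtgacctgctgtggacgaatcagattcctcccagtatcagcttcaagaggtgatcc
CCAAT on either strand was found in 9 of 9 class II promoters with an entry and in 34% of all 33469 promoters of that length. GAGGAAG, a core of PU.1 sites, was on either strand in 0 of the 9 and in 10.2% of all promoters. A match is a description of the letters and not a binding site.

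Complement tags synapses and debris for uptake, and C3 is its central component while C4 is cleaved upstream of it. Of 29 listed complement genes 23 were tested, 9 had an unadjusted p under 0.05 and were higher (3.37% of all genes), 0 were lower (1.5% of all genes), and the median log2 difference was 0.24, or 0.16 without R9869. C3 (ENSRNOG00000046834, chromosome 9) had 336, 560.3 and 1476 normalised reads in young and 682, 1211 and 2690.0 in old unimpaired rats (lowest, median and highest). The highest young rat was again R9780 and the highest old rat R9869 (log2 difference 0.93, SE 0.234, limma p = 0.000563, adjusted p = 0.169). C4b (ENSRNOG00000030729, chromosome 20) had 24.2, 33.2 and 50.7 in young and 38.6, 68.5 and 90.8 in old unimpaired rats, and 8 of 12 old unimpaired rats lay above the highest young rat, R2175. Its log2 difference was 0.88 (SE 0.166, limma p = 1.83e-05, adjusted p = 0.0866), with 0.89 (SE 0.191, two-sided limma p = 9.62e-05) in the Ion Proton table. For C4a, a near-identical copy that can share reads with C4b, the values were 31.7, 54.9 and 88.4 in young and 52.2, 103 and 164 in old unimpaired rats (log2 difference 0.84, limma p = 6.69e-05), and 9 of 12 lay above every young rat. C3, C4a and C4b were retested and all 3 passed with the number series in the model, as did Itgb2, the beta chain of complement receptors 3 and 4 (log2 difference 0.53). The C1q chains, which start the classical pathway, had differences of 0.36 for C1qa (limma p = 0.00163), 0.25 for C1qb (limma p = 0.00511) and 0.27 for C1qc (limma p = 0.00824) and were not retested. Young R2175, whose 11 tested leptomeningeal markers lay on average 2.56 log2 units above the young mean, had the highest complement level of the young rats, and the part of the meningeal markers in these values was not tested.

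Genes listed for resting microglia had smaller differences than class II. Of 20 tested genes of that list, 15 had an unadjusted p under 0.05 and were higher (3.37% of all genes), 0 were lower, 6 were retested, and the median log2 difference was 0.30. The summed level of the listed genes in the table ran from 6760.1 to 9219 normalised reads in young and from 6971 to 12089 in old unimpaired rats, with Siglech listed at 0 throughout. Cx3cr1, the fractalkine receptor, had 318, 346 and 424 in young and 345, 419 and 563 in old unimpaired rats (lowest, median and highest; log2 difference 0.32, SE 0.0783, limma p = 0.000376). P2ry12, the ADP receptor of resting microglia, differed by 0.37 (limma p = 0.00118), Csf1r, the growth factor receptor microglia depend on, by 0.25 (limma p = 0.00506) and Irf8, a transcription factor of the lineage, by 0.48 (limma p = 0.00157). These 4 genes were retested, and none of the 4 passed an adjusted p of 0.05 with the number series in the model. Of the same list Selplg, a selectin ligand, was retested and passed with the series (log2 difference 0.32, adjusted p = 0.0236), and Slco2b1, an organic anion transporter, passed with it and was not retested (log2 difference 0.26, adjusted p = 0.0472). Gpr84, a receptor induced on activated microglia, had the smallest p of the list (0.000358 in limma, log2 difference 0.50) and was not retested, with 0.24 in the Ion Proton table (limma p = 0.41). The counts and the median of the list are thus not those of resting genes alone.

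Among genes of activated microglia, 7 of 19 tested had an unadjusted p under 0.05, all of them higher, and the median log2 difference was 0.20. Trem2, a receptor for lipids and lipoproteins, had 137, 160.3 and 296 normalised reads in young and 189, 251 and 333 in old unimpaired rats (lowest, median and highest; log2 difference 0.51, SE 0.117, limma p = 0.000218, adjusted p = 0.117). Gpnmb, a glycoprotein of phagocytes, differed by 0.66 (limma p = 0.0004) and Tyrobp, the signalling partner of Trem2, by 0.44 (limma p = 0.00222), and these latter genes were retested while Trem2 was not (Ion Proton log2 difference 0.32, limma p = 0.189). Apoe, Lpl, Spp1 and Axl, also of this list, had differences of 0.11, -0.064, 0.061 and -0.014 with limma p from 0.169 to 0.876. None of these 4 was past the threshold. Fcgr2b (ENSRNOG00000046452, chromosome 13), the inhibitory receptor for IgG, had 60.7, 81.4 and 150.5 in young and 104, 132 and 198 in old unimpaired rats (lowest, median and highest; log2 difference 0.68, SE 0.133, limma p = 3.5e-05, adjusted p = 0.0902). Only 4 old unimpaired rats exceeded R9780, and 12 of 12 exceeded the young median. Fcer1g, the shared signalling chain of activating Fc receptors, differed by 0.47 (limma p = 8.89e-05), while Fcgr1a, Fcgr2a and Fcgrt had differences of 0.091, 0.044 and 0.0039. With the number series in the model, Fcgr2b, Fcer1g, Gpnmb and Trem2 passed an adjusted p of 0.05 in limma, at 0.019, 0.0253, 0.0254 and 0.0477.

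Lysosomal genes digest what phagocytes take up. Of 38 tested, 37 had a positive log2 difference (47.7% of all genes), 18 had an unadjusted p under 0.05 and were higher (3.37%), 0 were lower and 6 were retested, with a median of 0.15. Ctsz (ENSRNOG00000050697, chromosome 3), a cathepsin of phagocytes, had 152, 184 and 268 normalised reads in young and 204, 269.6 and 375 in old unimpaired rats (lowest, median and highest; log2 difference 0.50, SE 0.0991, limma p = 3.76e-05, adjusted p = 0.0902). In 7 of 12 old unimpaired rats it was above R9780, the highest young rat. Npc2, which hands cholesterol out of the lysosome, differed by 0.47 (limma p = 4.13e-05), Grn, the precursor of granulins, by 0.21 (limma p = 0.0004) and Hexa, a subunit of beta-hexosaminidase, by 0.16 (limma p = 0.00123). Grn and Hexa were retested, and Npc2 was not. With the number series in the model, Ctsz, Npc2 and Ctsd passed an adjusted p of 0.05.

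MHC class I and its peptide loading machinery, which all cells use to display their own proteins, differed less than class II. Of 25 tested genes, 13 had an unadjusted p under 0.05 and were higher (3.37% of all genes), 0 were lower, and the median log2 difference was 0.33 in the Illumina and 0.17 in the WT table. RT1-CE16, a class I heavy chain with many similar copies, had 218, 269.8 and 360.0 in young and 268, 365 and 692 in old unimpaired rats (lowest, median and highest; log2 difference 0.47, limma p = 0.00286). Tap1, which pumps peptides into the endoplasmic reticulum, differed by 0.34 (limma p = 0.00823), and Psmb8, an immunoproteasome subunit, by 0.45 (limma p = 0.00837). These 3 genes were retested, and none of them passed an adjusted p of 0.05 with the number series in the model. Of 30 tested interferon-stimulated genes, 6 had an unadjusted p under 0.05, all higher, none was retested, and the median was 0.14 in the Illumina and -0.024 in the Ion Proton table. Lgals3bp, a secreted glycoprotein, had the smallest p of that list (0.016 in limma, log2 difference 0.52), with 1 old unimpaired rat at 1332 normalised reads and a group median of 338. Among cytokines and chemokines, 1 of 11 tested had an unadjusted p under 0.05, Csf1 at 0.22 (limma p = 0.0384).

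The medians of these lists differed between the number series, a split that was not tested. In rats below 9000 the medians of complement, resting microglia, activated microglia, lysosome and class I were 0.12, 0.19, 0.12, 0.061 and 0.17. In rats from 9000 they were 0.39, 0.37, 0.33, 0.20 and 0.39, and each of the 5 was positive in both series.

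**Figure D2:**
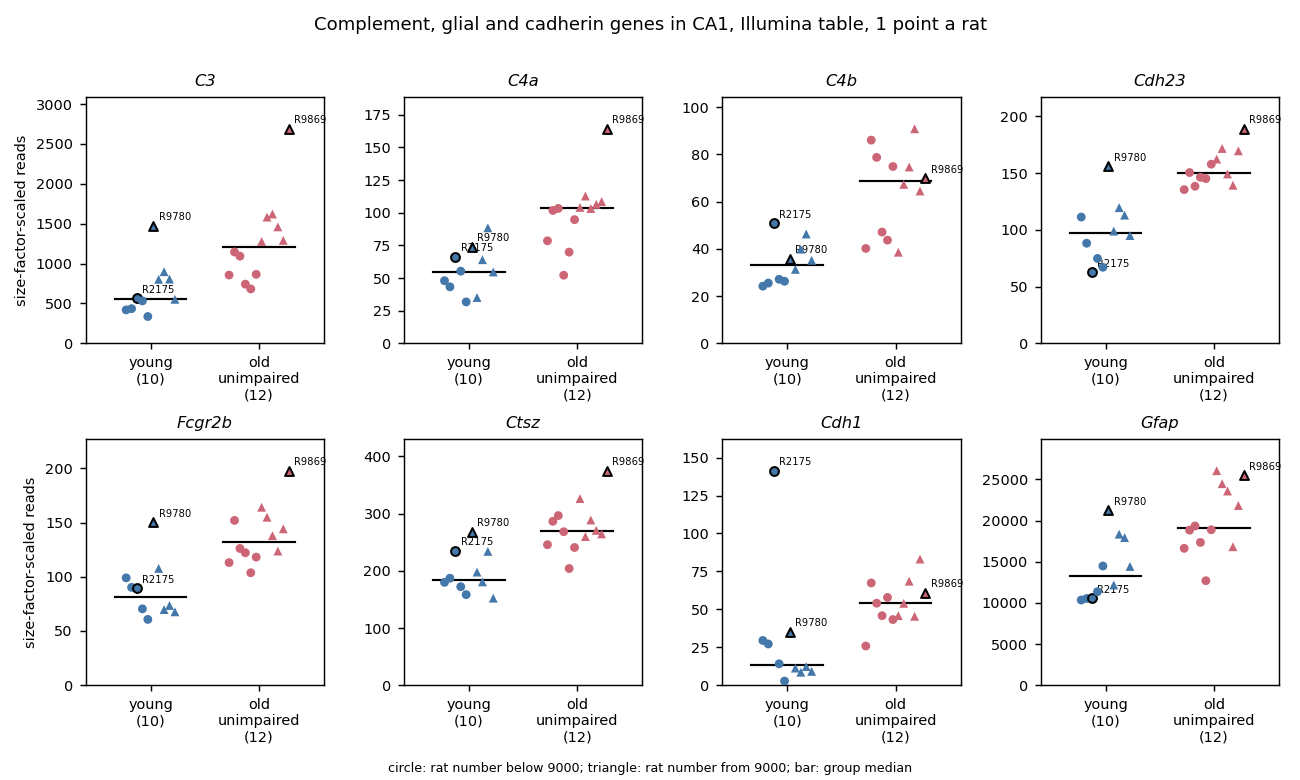
Normalised reads (linear axes from 0) of complement, glial and cadherin genes in CA1 of each young (10) and old unimpaired (12) rat, with a bar at the group median; circles are rat numbers below 9000 and triangles numbers from 9000. C4a and C4b stand above all young rats in 9 and 8 of 12 old unimpaired rats, R9869 is the highest rat for C3, C4a, Cdh23, Fcgr2b and Ctsz, and young R2175 is the highest of all rats for Cdh1.

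Without R9869, the highest rat for most of these genes, the log2 differences were 0.82 for C3 (limma p = 0.000856), 0.77 for C4a (limma p = 0.000111), 0.63 for Fcgr2b (limma p = 6.23e-05), 0.46 for Ctsz (limma p = 5.81e-05) and 0.66 for Cdh23 (limma p = 1.47e-05). Each of these 5 genes thus kept an unadjusted p under 0.01 without that library.

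Astrocyte genes differed in few members. Of 16 tested, 3 had an unadjusted p under 0.05 and were higher (3.37% of all genes), with a median log2 difference of 0.068, or 0.043 without R9869. Gfap (ENSRNOG00000002919, chromosome 10), the intermediate filament of reactive astrocytes, had 10348, 13302 and 21253 normalised reads in young and 12694, 19115 and 26061 in old unimpaired rats (lowest, median and highest; log2 difference 0.53, SE 0.137, limma p = 0.000757, adjusted p = 0.188). The Ion Proton difference was 0.70 (SE 0.136, two-sided limma p = 2.63e-05), and Gfap passed with the number series in the model (adjusted p = 0.019). Slc14a1, a urea transporter of astrocytes, differed by 0.23 (SE 0.0605, limma p = 0.000729) and was retested, whereas Aqp4 and Slc1a2, the water channel and glutamate transporter of astrocytes, had differences of 0.10 and 0.077 with limma p of 0.362 and 0.644. All 17 tested myelin genes had a positive difference (47.7% of all genes), with a median of 0.20, but 2 had an unadjusted p under 0.05, none was retested, and the median was 0.12 without R9869. Gjb1, a connexin of oligodendrocytes, had the smallest p of the list (0.0354 in limma, log2 difference 0.39).

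Cadherins are calcium-dependent adhesion proteins, and 3 of them had an unadjusted p under 0.05 and were higher while 3 were lower. Cdh23 (ENSRNOG00000033087, chromosome 20), an adhesion protein best known from hair cells, had the smallest p of all genes tested, with 62.8, 96.9 and 156 normalised reads in young and 135, 149.9 and 189 in old unimpaired rats (lowest, median and highest). R9780 was the highest young rat, 5 of 12 old unimpaired rats exceeded it, and all 12 exceeded the young median (log2 difference 0.69, SE 0.119, limma p = 6.44e-06, adjusted p = 0.0866). It passed an adjusted p of 0.05 with the number series in the model (0.00649 in limma), without R9780 (0.00151 in limma) and in DESeq2 (0.00284), but not in edgeR (0.122). Cdh1 (ENSRNOG00000020151, chromosome 19), the epithelial E-cadherin, had 2.72, 13.2 and 141 in young and 25.8, 54.0 and 83.1 in old unimpaired rats. The highest of all 22 values was that of young R2175, the rat with the raised leptomeningeal markers, and its level in the other 9 young rats was 35.2 or less. Its log2 difference was 1.56 (SE 0.399, limma p = 0.000685, adjusted p = 0.185), with 1.64 (SE 0.495, two-sided limma p = 0.0029) in the Ion Proton and 0.92 (limma p = 0.00658) in the WT table. Pcdhb4, a clustered protocadherin that can share exons and reads with its neighbours, differed by 0.43 (limma p = 7.84e-05) and was above every young rat in 9 of 12 old unimpaired rats. Cdh8, a neuronal cadherin, was retested in the other direction (-0.23, limma p = 0.00782), and over the 34 tested members of the family the median was -0.029, with 14 of them positive.

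Outside these groups, Bpifb4 (ENSRNOG00000034174, chromosome 3), a member of a family of lipid-binding secreted proteins, had 12.2, 17.8 and 70.1 normalised reads in young and 25.5, 44.2 and 69.8 in old unimpaired rats (lowest, median and highest). The young rat R9780 lay above all 12 old unimpaired rats, R9881 at 29.9 lay within their range, and the other 8 young rats lay below all of them (log2 difference 1.05, SE 0.222, limma p = 8.91e-05, adjusted p = 0.0902). Cd4, which rat microglia also carry, differed by 0.67 (limma p = 0.000827) and was not retested. The T cell genes Cd3e and Zap70 had differences of 0.049 and -0.052, the T cell kinase Lck was lower at -0.39 (limma p = 0.0156), Cd79a of B cells was listed at 0, and 16 of the 21 listed lymphocyte genes were too low or not in the table. Arl11, a small GTPase of the ARF-like family, differed by 0.72 (limma p = 1.38e-05), Gpr183, an oxysterol receptor, by 0.82 (limma p = 0.000241) and Ptgs1, cyclooxygenase-1, by 0.24 (limma p = 0.000156); they were chosen after their values were seen. Of the 86 retested genes, 52 were in none of the fixed lists, 39 higher and 13 lower.

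Of the 15 retested genes that were lower in old unimpaired rats, the 5 with the largest differences are given. Wnt16 (ENSRNOG00000005781, chromosome 4), a secreted Wnt ligand, had 8.67, 18.4 and 42.3 normalised reads in young and 5.09, 11.1 and 16.4 in old unimpaired rats (lowest, median and highest; log2 difference -0.77, SE 0.229, limma p = 0.00259, adjusted p = 0.377). Itga11 (ENSRNOG00000006723, chromosome 8), a collagen-binding integrin, had 29.5, 76.2 and 84.6 in young and 16.3, 40.0 and 81.3 in old unimpaired rats. In young rats 29.5 was the value of R9780 and the other 9 were at or above 56.3, while old unimpaired rats spread over the whole range (log2 difference -0.74, SE 0.24, limma p = 0.00534). Col4a5 (ENSRNOG00000018951, chromosome X), a chain of basement membrane collagen, had 58.3, 77.5 and 122 in young and 45.8, 56.2 and 89.2 in old unimpaired rats (log2 difference -0.49, SE 0.134, limma p = 0.00129). The groups of these 3 genes overlapped. LOC100361584, of no described function in the sources used here, had 7.68, 22.3 and 179.6 in young and 6.07, 8.30 and 30.5 in old unimpaired rats, the highest being that of young R9879 (log2 difference -1.10, SE 0.391, limma p = 0.00984). LOC100910572 differed by -0.58 (limma p = 0.00641). None of the 15 passed an adjusted p of 0.05 with the number series in the model; the 1 lower gene of that fit was Sms, spermine synthase, which was not retested.

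**Figure D3:**
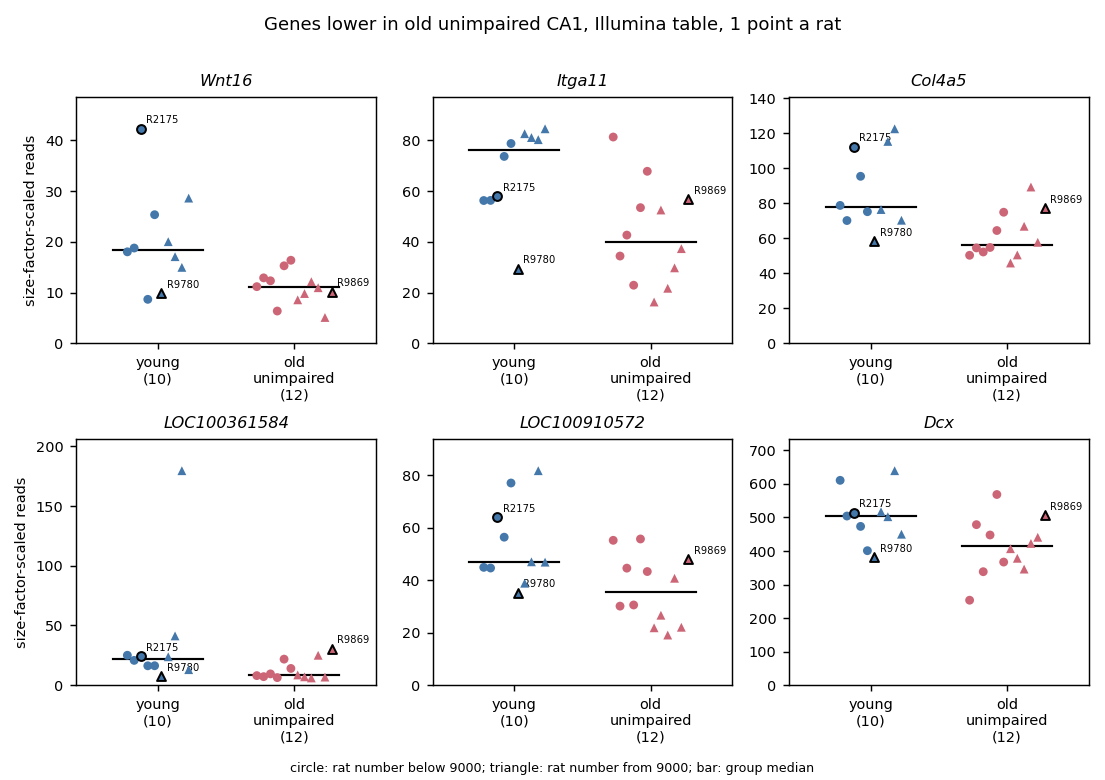
Normalised reads (linear axes from 0) of the retested lower genes Wnt16, Itga11, Col4a5, LOC100361584 and LOC100910572 and of Dcx, which was not retested, in CA1 of each young (10) and old unimpaired (12) rat, with a bar at the group median; circles are rat numbers below 9000 and triangles numbers from 9000. The old unimpaired median lies below the young median in each panel, and the groups overlap in all of them.

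Of 23 tested immediate early genes, which neurons switch on within minutes of firing, 21 had a negative log2 difference, where 47.7% of all genes had a positive one, with a median of -0.14, and 1 had an unadjusted p under 0.05. That gene was Btg2, an anti-proliferative early gene (105, 209 and 301 in young and 86.5, 142 and 251 in old unimpaired rats as lowest, median and highest, log2 difference -0.47, limma p = 0.0264), and Fos and Arc had differences of -0.48 and -0.19 with limma p of 0.159 and 0.318. Of 13 tested genes of newborn neurons and cell division, 3 had a positive difference, 2 had an unadjusted p under 0.05 and were lower, none was retested, and the median was -0.17 in the Illumina and -0.0083 in the Ion Proton table. Without R9869 the Illumina median was -0.27. Dcx, a microtubule protein of immature neurons, had 382, 503 and 639 normalised reads in young and 253, 415 and 569 in old unimpaired rats (log2 difference -0.29, SE 0.111, limma p = 0.017), and Sox11, the other of the 2, differed by -0.50 (limma p = 0.0458). Of 9 tested dentate granule genes, 0 had a positive difference and 0 had an unadjusted p under 0.05. Their Illumina median was -0.18, or -0.26 without R9869. The part of dentate tissue in the values of newborn neuron genes was not tested. Among 17 AMPA and NMDA receptor genes, 12 GABA-A subunits, 15 calcium channels, 20 calcium buffers and kinases, 27 vesicle release genes and 15 postsynaptic scaffolds, 0 had an unadjusted limma p under 0.05 in either direction in the Illumina table. Their medians were -0.056, -0.13, -0.04, -0.054, -0.025 and -0.0026, and without R9869 0.012, -0.10, -0.01, -0.024, 0.014 and 0.026, so 3 of the 6 changed sign. In the Ion Proton table, 3 of 20 calcium buffers and kinases (median -0.20), 2 of 15 calcium channels, 1 of 12 GABA-A subunits and 1 of 27 vesicle release genes had an unadjusted p under 0.05 and were lower (1.65% of all genes tested there), and none was higher. One of 28 potassium and pacemaker channels was under that threshold, Hcn2, a pacemaker channel, at 0.19 (limma p = 0.0178). The 76 nuclear genes of the respiratory chain and 73 ribosomal protein genes had 0 such genes in the Illumina table and medians of -0.019 and 0.044, or -0.013 and 0.022 without R9869. In the Ion Proton table, 4 of the former were lower and 4 of the latter higher by that threshold.

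**Figure D4:**
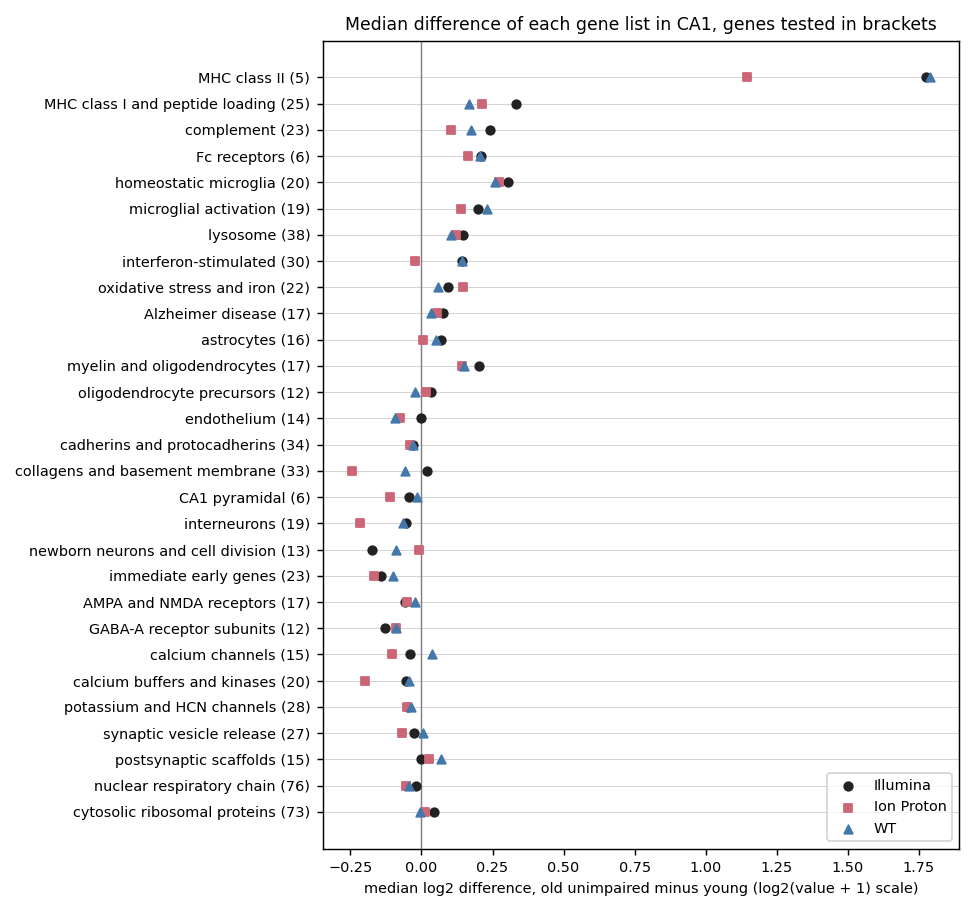
Median log2 difference, old unimpaired minus young, over the tested genes of each of 29 lists (number tested in the Illumina table in brackets), with a point for each of the Illumina, Ion Proton and WT tables and a line at 0. Among the lists shown MHC class II has the highest medians at 1.78, 1.14 and 1.79, the MHC class I, complement, Fc receptor, microglial, lysosomal and interferon-stimulated lists lie between 0 and 0.4 except the interferon-stimulated list in the Ion Proton table, and the neuronal lists lie near or below 0.

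Of 22 tested genes of oxidative stress and iron, 6 had an unadjusted p under 0.05 and were higher, led by Ftl1, the ferritin light chain, at 0.24 (limma p = 0.00132) and Hmox1, haem oxygenase, at 0.39 (limma p = 0.00266), and none was retested. Of 17 tested Alzheimer genes, the 4 under that threshold were Trem2, Cd33, Abi3 and Clu, while App, the precursor of the amyloid peptide, and Bace1, which cuts it, had differences of -0.002 and 0.034. The 25 genes that the study listed as shared age genes were chosen on these rats and are not independent evidence; 24 were higher with an unadjusted p under 0.05, 1 was lower, and their median log2 difference was 0.51.

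Markers of neighbouring tissue varied between rats. Choroid plexus markers summed to 46.9 to 1816 normalised reads in young rats and to 38.2 to 135822 in old unimpaired rats, with 4 of 12 above every young rat in mean log2 level, all from the series from 9000 (R9862, R9865, R9867 and R9869). Their median log2 difference was 1.00 with 0 of 11 under an unadjusted p of 0.05, and it was -0.27 in the series below 9000 and 2.42 in the series from 9000. In the series from 9000, old unimpaired rats also had the higher RT1-Da and Cd74 values. R9782, of the same series, had the highest class II level of the old unimpaired rats. Its choroid plexus markers lay 0.47 log2 units below the young mean, and those of R9780 lay at -0.062. Whether class II levels followed these markers across rats was not tested. Border macrophages, which also carry class II, had summed markers of 124 to 367 in young and 113 to 237 in old unimpaired rats, with 0 of 5 under that threshold and a median of 0.073, or 0.0077 without R9869. Endothelial markers had a median of -0.0017, -0.077 and -0.094 in the Illumina, Ion Proton and WT tables, and of -0.024 without R9869 in the Illumina table, with 0 of 14 under the threshold in the latter with all rats. Haemoglobin genes, a sign of blood in the tissue, had a median of 0.34 with 0 of 6 under the threshold, and of 0.21 without R9869. In the Ion Proton table their median was 0.92, and 5 of 6 had an unadjusted p under 0.05 and were higher (2.62% of all genes tested there). Their summed Illumina level was 775 to 3475 normalised reads in young and 669 to 6225 in old unimpaired rats. The part of these tissues in the immune differences was not tested.

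CA3 and DG of the same rats gave 0 of 14244 (0%) and 7 of 13999 genes (0.05%) past an adjusted p of 0.05 in limma, and 470 (3.3%) and 588 (4.2%) at an unadjusted p under 0.05. RT1-Db1 differed by 2.27 (SE 0.554, limma p = 0.000446) in CA3 and 2.18 (SE 0.427, limma p = 3.19e-05) in DG, and C4b by 0.75 and 1.03. In the Illumina and Ion Proton tables, markers placed the CA3 libraries of R9860, R9865, R9877 and R9879 nearer to another subfield. The same held for the DG libraries of R2232, R9865 and R9869. Without these libraries, the differences of RT1-Db1 were 2.07 in CA3 and 2.36 in DG. Rat R9780 stood at 110.0 normalised reads of RT1-Db1 in CA3, the second highest young value after R9876, and at 23.6 in DG, the second highest after R9881. Cdh1 differed by 2.58 (SE 0.357) in DG and 1.52 (SE 0.557) in CA3, where young R9876 reached 582. Whether the difference in CA1 was unlike that in CA3 or DG was tested by limma interaction over 66 libraries, and 0 of 14161 genes passed an adjusted p of 0.05 against either subfield (0%), with 303 (2.14%) and 122 (0.862%) at an unadjusted p under 0.05. The 66 included the libraries nearer to another subfield, among them the CA1 library of R9869, and mixed tissue can make subfields look more alike. With edgeR 7 genes passed against CA3 and 0 against DG, and with DESeq2 7 and 3. Cldn2 and Kl, both made by choroid plexus, were among the genes of DESeq2 in both tests and of edgeR against CA3, and were chosen after their values were seen. The interaction for RT1-Db1 was -0.23 against CA3 (limma p = 0.75) and -0.14 against DG (limma p = 0.841) with SE of 0.719 and 0.719, in a fit that took no account of the shared rats. With the rat as a block the SE were 0.67 and 0.67 and the p 0.733 and 0.83 (limma).

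The 12 old rats labelled impaired after the maze task were set beside the old unimpaired rats. RT1-Da had 32.0, 95.4 and 185 normalised reads in old impaired rats (lowest, median and highest), and the old impaired minus old unimpaired difference was -0.16 (SE 0.388, limma p = 0.683). For C4b that difference was -0.038 (SE 0.169), for Gfap -0.18 (SE 0.124) and for Wnt16 0.52 (SE 0.244, limma p = 0.0416). Across all genes, 0 of 14191 passed an adjusted p of 0.05 between the old groups with limma (0%) and 0 with edgeR and 2 with DESeq2, while 858 (6.05%) had an unadjusted p under 0.05. The old impaired minus young values in the plot of differences share their young rats with the old unimpaired minus young values and are set beside them as values only.

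**Figure D5:**
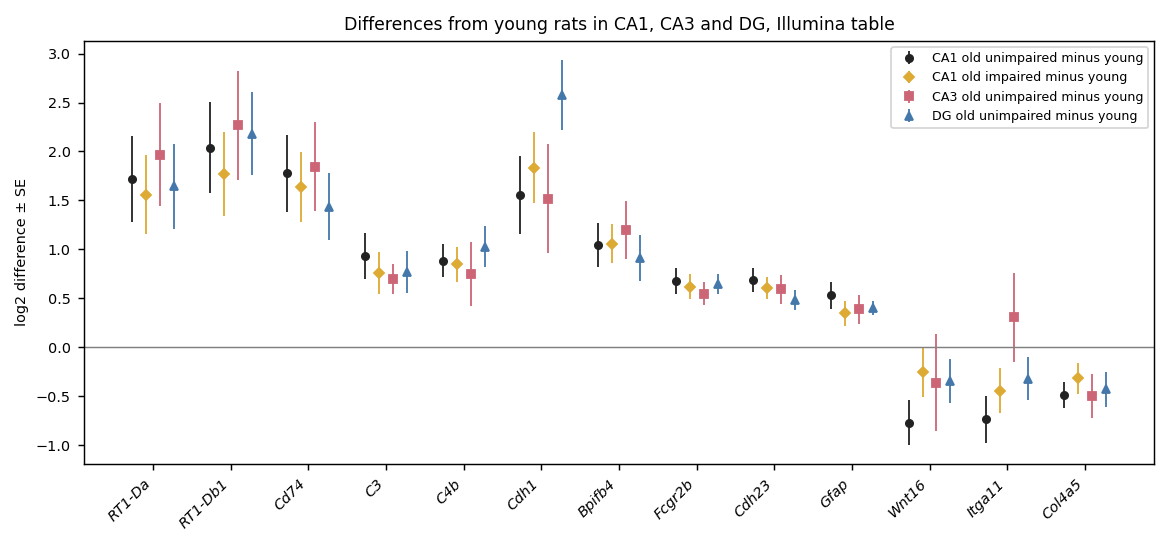
Log2 difference with its standard error for 13 genes in the Illumina table, for CA1 old unimpaired minus young (12 and 10 rats), CA1 old impaired minus young (12 and 10), CA3 old unimpaired minus young and DG old unimpaired minus young (12 and 10 each), with a line at 0. The class II genes, C3, C4b, Cdh1, Bpifb4, Fcgr2b, Cdh23 and Gfap lie above 0 in all 4 contrasts, while Itga11 lies below 0 in CA1 and DG and above 0 in CA3.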

How the data were processed

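Gene tables of 3 kinds were used for CA1 of 22 rats. The authors divided the counts of each library by a DESeq2 size factor, so the deposited values are a normalised signal and not counts. Per the labels, reads were processed with bcl2fastq 2.17, cutadapt 1.8.3, STAR 2.5, featureCounts 1.4.4 and DESeq2 1.16.1 on the rn5 build, and the study's methods name TopHat2 and Bowtie2 for Ion Proton reads. The labels name a stranded kit and the methods an unstranded one, so reads of overlapping antisense genes cannot be told apart. Mitochondrial genes are listed at 0 in the Ion Proton table, and the aligner and counter of the WT table are not given in the sources used here.

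Whole reads came out for 100.0% of positive values (within 0.01 of a whole number) once each column was divided by its smallest step, and the sum of these reads is the depth of a library. Values were transformed to log2(value + 1), genes with a mean of at least 10 were kept, and groups were compared with limma 3.58.1 (trend) in R 4.3.3 with Benjamini-Hochberg adjustment. Two-sided permutation tests of depth used 100000 draws. Alternatives were edgeR 4.0.16 (quasi-likelihood) and DESeq2 1.42.0 on the recovered reads, the number series as a covariate or each series alone, sample weights, another pseudocount (0.1), no filter, quantile normalisation, all 34 CA1 libraries in the fit, no rats above 25 M reads, no R9869 and each rat left out. Fits of R9780 left out together with the series, edgeR with the series, and Ion Proton without R2230 and R2232 were chosen after seeing the data. The fits were tested on simulated data.

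Named genes were the 5 retested genes with the largest difference in each direction and the gene with the smallest p in each of 56 lists, and genes that stand for a role in a list were added. The members and lists were chosen with earlier results of these data known. The interaction was also fitted with the rat as a replicate block, because the libraries of the subfields came from the same animal. Deviations from the group mean correlated at a median of 0.094 between CA1 and CA3 and 0.192 between CA1 and DG over 22 rats. Per the study's methods rats came from different suppliers and were characterised at sites in Arizona and Florida, and since the labels do not tie rats to sites, no fit with the site was made. Promoter sequences came from RefSeq on GRCr8, in which 49 of the 59 named genes had an entry. The results of some genes that the rule selects are not reported here.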

Additional observations from a re-analysis of the deposited data

Results flagged for a closer look

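Single young libraries stood far from the other 9 in 19 of the named genes, by a gap larger than the 95% limit of Dixon's test, a test that chance passes in about 1 in 20 groups. The limits used reach 10 samples, so the 12 old unimpaired rats were not tested this way. Young R9780 held 9 of these values. Its MHC class II values were 210.3 normalised reads for RT1-Da, 159.7 for RT1-Db1, 154 for LOC688090 and 926 for Cd74, and no other young rat exceeded 77.3, 38.7, 41.1 and 288. It also stood high for Fcgr2b at 150.5, Trem2 at 296, Bpifb4 at 70.1 and Ftl1, the ferritin light chain, at 1612, and low for Itga11 at 29.5. In these 9 genes the rat lay on the side of the old unimpaired rats.

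Young R2175 held 5 values. Cdh1 was at 141, the organic anion transporter Slc22a6 at 278, the macrophage lectin Clec10a at 96.6 and the muscle filament gene Des at 299.6 normalised reads, each the highest of the young rats, and the clock gene Per1 at 832 was the lowest. Its leptomeningeal markers were 2.56 log2 units above the young mean, and their part in these values was not tested.

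Young R9879 held 3 values, 179.6 for LOC100361584, 408 for the small heat shock protein Hspb8 and 167 for the dynein chain Dnah11. Young R9876 held 1, Ppp1r1b at 1663, and young R9877 held 1, Sostdc1 of the choroid plexus at 35.6, where the other 9 had at most 9.11.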

How the results depend on the processing

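Of 823 values of the 59 named genes under alternatives, 705 kept direction and side of the threshold, 73 kept direction and lost the threshold, 38 gained it and 7 changed sign; 2 of 390 list medians moved beyond the spread between rats. Illumina calls, 0 with limma, were 27 with DESeq2, 47 with the number series, 15 without deeply sequenced rats, 24 with all 34 CA1 libraries and 83 with sample weights, and with the alternatives chosen after seeing the data 27 (series, no R9869), 16 (edgeR with series) and 69 (series, no R9780). Leaving out each rat gave 0 to 41 calls in the Illumina, 0 to 5 in the Ion Proton and 0 to 30 in the WT table. The Ion Proton table, with 0 calls, gave 8 with DESeq2, 3 with the series and 5 without R2230 and R2232. The WT table, with 2 calls, gave 0 without the filter, 28 with DESeq2, 6 with the series and 0 without R9869. The 86 retested genes became 140 with DESeq2, 160 with the series, 36 and 137 in the series below and from 9000, 300 with sample weights, 131 (series, no R9869), 196 (edgeR with series), 191 (series, no R9780) and 147 without R2230 and R2232, and 63 to 161 with each rat left out. The interaction against CA3, with 0 calls, gave 7 with edgeR and 7 with DESeq2, that against DG 3 with DESeq2, and old impaired against old unimpaired 2 with DESeq2. With the rat as a replicate block, 0 genes passed against CA3 and 0 against DG, as without the block, and no other comparison was fitted with it. Signs turned in the Ion Proton table for Rps27l (-0.24), Gpr17 (0.072), Grm8 (0.069) and Des (0.14), in rats from 9000 for Tspan18 (0.017), and in rats below 9000 for Eng (-0.033) and Dnah11 (-0.085). The causes were not tested. Depth limits genes near 10 normalised reads, and the labels do not tie rats to sites.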

Other observations

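Of the 52 retested genes outside the lists, 39 were higher in old unimpaired rats, and 7 of them are given here, chosen after their values were seen, so that no theme can be read from them. Emr1, the F4/80 antigen of macrophages and microglia, had 139, 179 and 233 normalised reads in young and 191, 243 and 307 in old unimpaired rats (lowest, median and highest; log2 difference 0.40, SE 0.0971, limma p = 0.000376). Slc2a5, the fructose transporter of microglia, differed by 0.37 (limma p = 0.00385), Fgr, a Src-family kinase of myeloid cells, by 0.50 (limma p = 0.00151), Irf5, a transcription factor of inflammatory signalling, by 0.25 (limma p = 0.00312) and Tnfrsf1b, the second receptor for tumour necrosis factor, by 0.33 (limma p = 0.00814). Alox12, a lipoxygenase, differed by 0.67 (limma p = 0.000211) and Pla2g7, which degrades platelet-activating factor, by 0.34 (limma p = 0.00245).

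The retested receptor genes Npy1r and Acvr2a were lower and belonged to no list. Npy1r, a receptor for neuropeptide Y, had 165, 224 and 302 normalised reads in young and 156, 191 and 209.9 in old unimpaired rats (lowest, median and highest; log2 difference -0.26, SE 0.0865, limma p = 0.00643), and Acvr2a, an activin receptor, differed by -0.31 (limma p = 0.00545). Of 11 tested genes of cell cycle arrest and senescence, 10 had a positive difference (47.7% of all genes) and 1, Cdkn1a, had an unadjusted p under 0.05 and was higher (3.37% of all genes; 0.45, limma p = 0.0424). Of 17 clock genes 1 was under that threshold, beside 4.87% of all genes, namely Per1 at -0.14 (limma p = 0.0295).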
